A study of Mus musculus with 4 samples.

Results

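The splicing factor genes described here are the 62 protein-coding genes of the GENCODE M1 annotation (mouse genome build mm9) whose symbol begins with Srsf, Snrp, Hnrnp, Sf3a, Sf3b or Prpf, out of 22380 protein-coding genes. They comprise 11 SR protein genes, 18 hnRNP genes, 8 genes of the SF3a and SF3b complexes, 13 Prpf genes and 12 Snrp genes. The rule uses symbols only and no measured value. SHP (NR0B2), an orphan nuclear receptor that has no DNA-binding domain of its own and acts as a co-repressor, was mapped by ChIP-seq in the liver of wild-type male C57BL/6 mice 8 to 12 weeks old. Both groups were fasted for 12 h and received a tail vein injection, of vehicle in the control group and of FGF19 at 1 mg/kg in the treated group, and livers were taken 2 h later. FGF19 is an intestinal hormone of the fed state that signals to the liver. Immunoprecipitates and inputs from 3 mice were pooled within each group, so a group is 1 SHP library with 1 input library, differences between the groups have no replicate check, and no p-value is given for them. Each difference below is between those pooled libraries, not between conditions.

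After the authors kept 1 tag per position and strand, the SHP libraries held 15473647 tags with vehicle and 13444078 with FGF19, and their peak lists held 1508 and 3155 peaks. The deeper library therefore gave the shorter list. Of the 12 hepatocyte marker genes looked up (Alb, Apoa1, Ttr and others), all 12 had a peak within 5 kb in both lists. Of 18 marker genes of leukocytes, endothelium, stellate cells and cholangiocytes, Sox9 alone had a peak in either list. Its peak was in the FGF19 list and not in the vehicle list. Over all protein-coding genes, 4.31% had a peak in both lists and 19.9% in either. The hepatocyte genes have 13 annotated entries. A peak centre lay within 1 kb of the entry's own transcription start site for 5 with vehicle and 6 with FGF19. SHP peaks do not measure expression, so this describes where the peaks lay and not the makeup of the tissue. In whole liver, binding in more cells and more binding per cell cannot be told apart.

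Pre-mRNA splicing is carried out by the spliceosome, which is built anew on each intron from small nuclear ribonucleoproteins (snRNPs) and many other proteins. SR proteins bind exons through RNA recognition motifs, carry a domain rich in arginine and serine, and help to recruit the first snRNPs. The hnRNPs coat nascent RNA and often act against the use of nearby splice sites. Sm and other Snrp proteins form the body of the snRNPs, SF3a and SF3b are the parts of the U2 snRNP that hold the branch point, and the Prpf proteins, named after yeast splicing mutants, include the core of the U4/U6.U5 tri-snRNP. Nearly every cell uses these proteins, and the levels of many SR proteins and hnRNPs are set by splicing of their own transcripts.

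Sequences are shown first, because most peaks of these genes lay in short CpG-rich stretches at the start of the gene. The windows reach 100 bp to each side of the peak summit and are cut to the longest stretch that overlaps no annotated untranslated region. They were read from the mm9 genome and are written 5′ to 3′ on the strand of the gene. Capitals mark exact matches, on either strand, to the motifs counted further down (AANATGGC, CCCCGCCCC, ATTGGC, TCTCGCGA or AGGTCA). Srsf2, Srsf3, Hnrnpul1 and Sf3a1 were chosen because they had a peak in both lists, and Srsf5 because its window holds 2 different motifs.
Srsf2, FGF19 peak, chr11:116714444-116714644, minus strand: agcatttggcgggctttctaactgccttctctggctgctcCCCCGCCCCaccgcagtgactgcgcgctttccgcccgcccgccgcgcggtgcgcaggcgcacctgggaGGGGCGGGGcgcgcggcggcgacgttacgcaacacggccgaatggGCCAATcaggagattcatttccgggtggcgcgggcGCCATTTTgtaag
Srsf3, FGF19 peak, chr17:29169311-29169511, plus strand: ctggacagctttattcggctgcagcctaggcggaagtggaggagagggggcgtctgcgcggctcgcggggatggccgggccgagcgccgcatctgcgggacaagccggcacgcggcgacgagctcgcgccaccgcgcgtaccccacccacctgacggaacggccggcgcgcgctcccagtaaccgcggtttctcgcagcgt
Srsf3, vehicle peak, chr17:29169459-29169617, plus strand: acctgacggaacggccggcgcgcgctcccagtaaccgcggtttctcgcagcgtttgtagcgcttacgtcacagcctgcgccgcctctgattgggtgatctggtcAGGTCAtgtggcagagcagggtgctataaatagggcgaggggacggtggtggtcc
Srsf5, FGF19 peak, chr12:82047060-82047260, plus strand: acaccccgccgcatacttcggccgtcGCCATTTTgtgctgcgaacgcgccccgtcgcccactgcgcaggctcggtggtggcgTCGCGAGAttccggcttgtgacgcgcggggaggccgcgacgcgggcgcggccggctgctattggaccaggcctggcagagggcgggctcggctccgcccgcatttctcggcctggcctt
Hnrnpul1, FGF19 peak, chr7:26539750-26539888, minus strand: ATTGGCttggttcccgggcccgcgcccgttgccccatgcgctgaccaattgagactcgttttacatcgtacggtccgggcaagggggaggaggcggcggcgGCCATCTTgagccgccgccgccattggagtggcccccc
Sf3a1, FGF19 peak, chr11:4060297-4060352, plus strand: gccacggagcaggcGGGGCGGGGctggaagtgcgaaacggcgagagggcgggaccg

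Of the 62 genes, 13 had a peak within 5 kb of the gene body with vehicle, which is 21.0% (95% Wilson interval 12.7 to 32.6), and 27 had one with FGF19, which is 43.5% (31.9 to 55.9). Over all protein-coding genes the shares were 7.93% with vehicle and 16.3% with FGF19. The splicing factor genes thus lay above the background in both lists, and the step from vehicle to FGF19 was about the same factor in them as in all genes. Some peak was present at 30 genes (48.4%, background 19.9%). Peaks were present in both lists at 10 genes (16.1%, background 4.31%), with FGF19 only at 17 (27.4%, background 12.0%) and with vehicle only at 3 (4.84%, background 3.62%). The share with vehicle only was near its background. The other 32 genes had no listed peak, and signal below the authors' cutoff was not analysed here. When the FGF19 list was shortened to its 1508 peaks of smallest q-value, 16 genes (25.8%, against 8.06% of all genes) had an FGF19 peak, against the 13 with vehicle. With a fold enrichment of at least 4 required, 5 genes had a vehicle peak (8.06%, against 4.27% of all genes) and 14 an FGF19 peak (22.6%, against 8.61%). No intervals are given for these shares. The vehicle share here rests on 5 genes, so it does not settle whether that list stays above the background at this cutoff. Intervals cover counting error only, and the list of genes was not tested as a set.

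Counted at the promoter, meaning a peak centre within 1 kb of a transcription start site (TSS) of the gene itself, 11 genes had a vehicle peak (17.7%, background 5.53%) and 23 an FGF19 peak (37.1%, background 12.5%). At 8 promoters both lists had one (12.9%, background 2.59%), at 15 the FGF19 list alone (24.2%, background 9.88%) and at 3 the vehicle list alone (4.84%, background 2.94%). Of the 30 genes near any peak, 26 had one at their own promoter (41.9% of the 62, background 15.4%). The remaining 4, Hnrnpu, Hnrnpul2, Prpf8 and Snrpd3, were counted through peaks that lay outside the gene.

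The families differed in their counts. Among SR protein genes 7 of 11 had an FGF19 peak (63.6%, 35.4 to 84.8) and 4 of 11 a vehicle peak (36.4%, 15.2 to 64.6). Of the hnRNP genes 12 of 18 had an FGF19 peak (66.7%, 43.7 to 83.7) and 4 a vehicle peak (22.2%, 9.00 to 45.2). At the promoter itself it was 10 with FGF19 (55.6%, 33.7 to 75.4) and 2 with vehicle (11.1%, 3.10 to 32.8). That vehicle interval includes the promoter background of 5.53%. The SF3a and SF3b genes were the only family with more vehicle than FGF19 calls, 4 of 8 (interval 21.5 to 78.5%) against 2 of 8 (7.15 to 59.1%). The Prpf genes had 1 of 13 with vehicle (7.69%, 1.37 to 33.3) and 5 of 13 with FGF19 (38.5%, 17.7 to 64.5). The vehicle share of the Prpf genes was thus near the 7.93% of all genes, and the FGF19 intervals of the SF3a and SF3b genes and of the Snrp genes (1.49 to 35.4%) include the 16.3% of all genes. Of the 12 Snrp genes 0 had a vehicle peak and 1 an FGF19 peak, and 0 had a peak at the promoter. The interval for the Snrp genes at the promoter with FGF19 reached up to 24.2%, which includes the background of 12.5%, and differences between families were not tested.

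**Figure D1:**
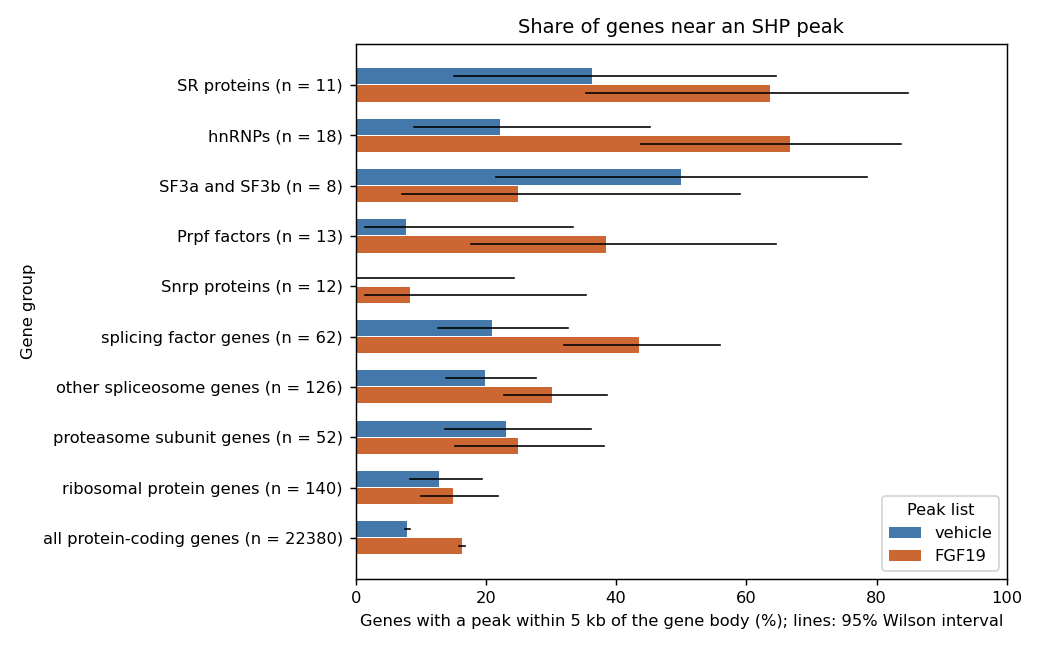
Bars give the percentage of genes in each group with an SHP peak within 5 kb of the gene body, in the vehicle list (blue) and the FGF19 list (orange), and black lines give 95% Wilson intervals, which cover counting error only. The hnRNP and SR protein genes reached 66.7% and 63.6% with FGF19, against 16.3% of all protein-coding genes, and the Snrp genes 8.33%.

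For the other genes of the splicing machinery the shares lay between those of the splicing factor genes and the background. In a list of 126 further genes (Snrnp, Lsm, Gemin and Luc7l genes, helicases, exon junction complex genes and splicing regulators), 25 had a vehicle peak (19.8%, 13.8 to 27.7) and 38 an FGF19 peak (30.2%, 22.8 to 38.7). Both lists had a peak at 11 of them (8.73%, 4.94 to 14.96, background 4.31%). At the gene's own promoter both lists had one at 9 (7.14%, background 2.59%). The peaks counted for U2af2 did not overlap, and its vehicle peak was nearest to the TSS of Epn1. Both peaks counted for Zmat2 were nearest to the TSS of Vault. Values are given here for 3 of the 11, chosen after their values were seen. Eif4a3, the helicase that anchors the exon junction complex, had fold enrichments of 4.16 (vehicle) and 7.45 (FGF19). Sart3, a recycling factor of the U4/U6 snRNP, had 7.28 and 6.16, and Eftud2, the GTPase of the U5 snRNP, had 5.20 and 2.91. For 52 genes whose symbol begins with Psm, most of them encoding the proteasome, 12 had a vehicle peak (23.1%, 13.7 to 36.1) and 13 an FGF19 peak (25%, 15.2 to 38.2). The vehicle share of the Psm genes was thus above the 21.0% of the splicing factor genes. Of 140 genes named Rpl or Rps, 18 had a vehicle peak (12.9%, 8.29 to 19.4) and 21 an FGF19 peak (15%, interval up to 21.8). Over all protein-coding genes the shares were 7.93% with vehicle and 16.3% with FGF19. The FGF19 share of the Rpl and Rps genes was near that background, and the FGF19 interval of the Psm genes includes it. Both the Psm group and the Rpl and Rps group encode proteins used in nearly every cell, and the differences between groups were not tested.

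Peak strength is given in 2 units. Pileup is the number of extended SHP ChIP tags at the summit, and fold enrichment is the ratio of that pileup to the local input background, each with 1 added, as the authors' peak caller wrote it. The 13 vehicle peaks had a median fold enrichment of 3.83 (quartiles 3.22 and 4.49, range 3.00 to 5.35), against 4.14 for all vehicle peaks. The 28 FGF19 peaks had a median of 4.00 (3.45 and 4.95, range 2.42 to 6.46), against 4.05 for all FGF19 peaks. The medians were thus close to those of the full lists, with 4 of 13 vehicle peaks and 12 of 28 FGF19 peaks at or above the median of their list. Median pileup was 24 tags with vehicle and 26 with FGF19, against 24 in both full lists. The highest pileups, 45 with vehicle and 37 with FGF19, lay above 91.6% and 93.7% of their lists, which reach 373 and 520.

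**Figure D2:**
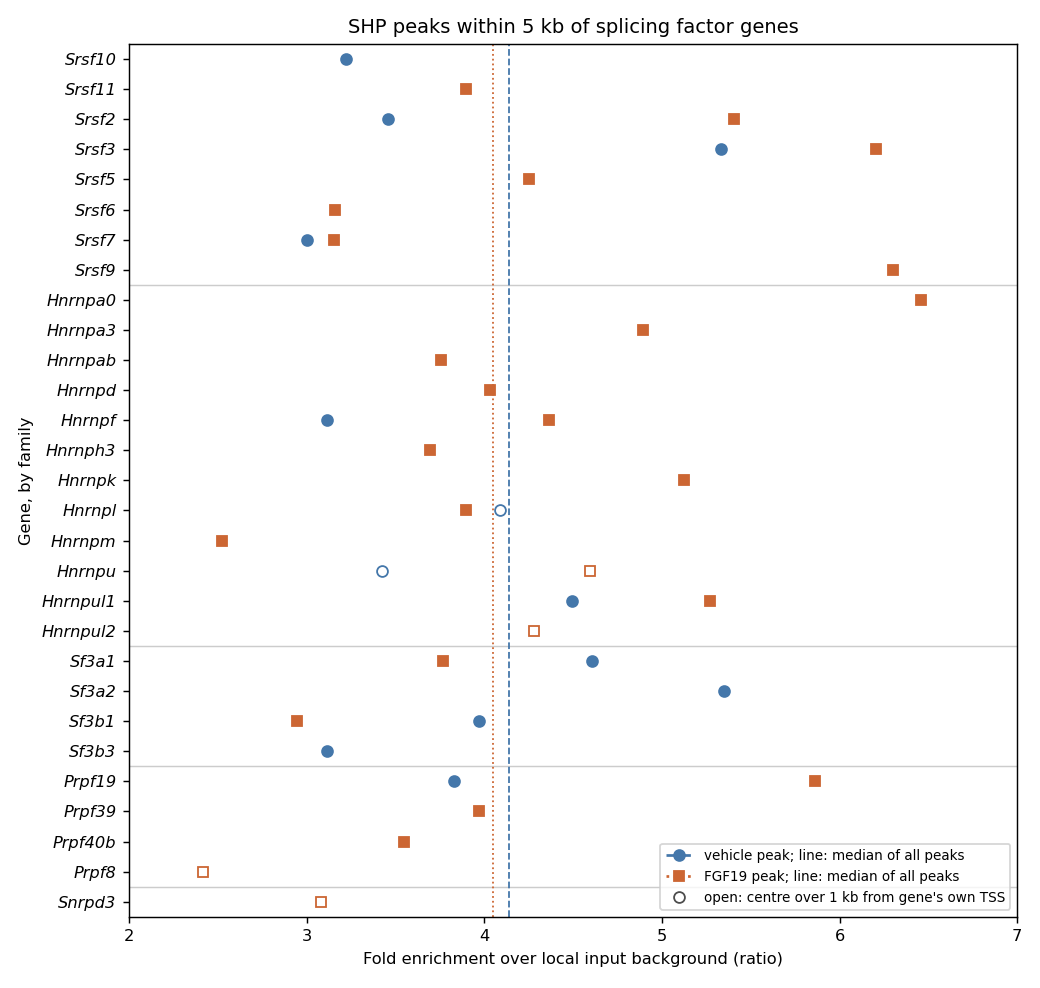
Each point is 1 SHP peak within 5 kb of the gene named at the left, placed by its fold enrichment (a ratio), with circles for vehicle and squares for FGF19, open where the peak centre lay over 1 kb from every TSS of that gene. Dashed and dotted lines mark the medians of all vehicle peaks (4.14) and all FGF19 peaks (4.05), and the points lie on both sides of them, from 2.42 at Prpf8 to 6.46 at Hnrnpa0 (1 gene counted in the text is not shown).

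Srsf3 encodes one of the smallest SR proteins and had a peak in both lists. With vehicle the peak lay on chromosome 17 from 29169412 to 29169814, with 24 tags at the summit and a fold enrichment of 5.33, and with FGF19 from 29169192 to 29169827, with 29 tags and 6.21. The FGF19 value was higher than 93.9% of the FGF19 list and the vehicle value higher than 80.4% of the vehicle list, counting ties by their mean rank. Both summits were upstream of the TSS, at -59 bp for the vehicle peak and -207 bp for the FGF19 peak (negative positions are upstream), and the printed windows overlap at one end. No other protein-coding TSS lay within 1 kb.

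Srsf2 encodes the SR protein also called SC35 and shares its start region with Mfsd11, which is read from the opposite strand. Its vehicle peak, on chromosome 11 from 116713896 to 116714278, had 20 tags, a fold enrichment of 3.46 and a summit in the coding part of an exon. The FGF19 peak reached from 116713776 to 116714758, with 26 tags, a fold enrichment of 5.40 and a summit at -136 bp from the TSS. The intervals shared 383 bp, but the summits were 468 bp apart, so the overlap joins separate maxima.

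Srsf7, whose product is close to that of Srsf3 but carries a zinc knuckle, had weak peaks at almost the same place on chromosome 17, from 80606368 to 80606628 (vehicle) and from 80606366 to 80606632 (FGF19). Pileups were 25 and 29 tags and fold enrichments 3.00 and 3.15, in the lowest 8.75% and 14.2% of the lists. Local background there was high, at 7.66 and 8.51 on the pileup scale, and the TSS of Ttc39d lies within 1 kb on the opposite strand. Srsf10, which encodes a splicing factor that responds to heat shock, was the SR protein gene with a vehicle peak only, on chromosome 4 from 135411762 to 135412219, with 30 tags and a fold enrichment of 3.22.

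With FGF19 only, Srsf9 had the strongest SR protein peak, on chromosome 5 from 115777048 to 115777345, with 32 tags, a fold enrichment of 6.30 and a summit 8 bp downstream of the TSS. Srsf5 had a peak on chromosome 12 from 82046667 to 82047312 with 29 tags and a fold enrichment of 4.25, and Srsf11 one on chromosome 3 from 157699427 to 157699824 with 24 tags and 3.89. The Srsf11 peak centre lay 0.5 bp from the TSS of Lrrc40, on the opposite strand, and 22.5 bp from that of Srsf11. Srsf6 had a fold enrichment of 3.16 with 20 tags. Srsf1, the founding member of the family, Srsf4 and Srsf12 had no listed peak.

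Among the hnRNP genes, Hnrnpul1 and Hnrnpf had promoter peaks in both lists. The Hnrnpul1 peak lay on chromosome 7 from 26539511 to 26539994 (vehicle) and from 26539319 to 26539925 (FGF19). Pileup was 25 tags with vehicle and 33 with FGF19, and fold enrichment 4.49 and 5.27, with summits at 7 bp and -39 bp from the TSS. Hnrnpf encodes a protein that binds G-rich RNA, and its peaks, on chromosome 6 from 117856847 to 117857175 and from 117856716 to 117857186, had summits 6621 and 6576 bp inside the gene as annotated. Their summits were 179 and 134 bp downstream of another annotated TSS of the gene, in an untranslated exon, with 20 tags and a fold enrichment of 3.11 (vehicle) and 27 tags and 4.36 (FGF19). The TSS of 4933440N22Rik lies within 1 kb on the opposite strand.

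Hnrnpl and Hnrnpu also had peaks in both lists, but these need their neighbours named. At Hnrnpl the vehicle peak, on chromosome 7 from 29610069 to 29610491 (37 tags, fold enrichment 4.09), lay 2784 bp past the end of the gene and 44 bp from the TSS of Ech1, an enzyme of fatty acid oxidation. Its FGF19 peak, from 29596085 to 29596643 (24 tags, 3.89), lay inside the gene with a summit in an intron, 301 bp downstream of an annotated Hnrnpl TSS. The lists therefore pointed to separate sites. At Hnrnpu, which encodes a scaffold protein of the nucleus, both peaks lay on chromosome 1 past the end of the gene, from 180248941 to 180249306 (vehicle) and from 180248839 to 180249238 (FGF19). Their centres were 137.5 and 222.5 bp from the TSS of Fam36a. Pileup was 45 tags with vehicle, the highest of all splicing factor peaks, and 37 with FGF19, and fold enrichments were 3.42 and 4.60.

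The remaining 8 hnRNP genes had an FGF19 peak only. Hnrnpa0, a gene with a single annotated transcript, had the largest fold enrichment of any splicing factor peak, 6.46 with 25 tags, on chromosome 13 from 58229756 to 58230425 with its summit at -200 bp. Hnrnpk encodes a protein that binds C-rich sequence, and its peak on chromosome 13 from 58503302 to 58504174 had 31 tags and a fold enrichment of 5.12, with the opposite gene Rmi1 starting within 1 kb. Hnrnpa3 had 4.89 with 26 tags, on chromosome 2 from 75497473 to 75497777, in an intron 230 bp downstream of a TSS. The others, Hnrnpab, Hnrnpd, Hnrnph3, Hnrnpm and Hnrnpul2, ranged from 2.52 at Hnrnpm to 4.28 at Hnrnpul2, where the peak lay at the TSS of the neighbour Bscl2. Hnrnph3 shared the highest FGF19 pileup, 37 tags, with Hnrnpu, over a background of 9.29, and its start region is shared with Pbld2. The 6 genes with no listed peak were Hnrnpa1, Hnrnpa2b1, Hnrnpc, Hnrnph1, Hnrnph2 and Hnrnpr, among them the genes of the core A and C proteins.

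The SF3a and SF3b genes had 0 peaks in the FGF19 list alone. Sf3b1, the subunit that clamps the branch point, had peaks on chromosome 1 from 55084066 to 55084382 (vehicle) and from 55084021 to 55084466 (FGF19), with 24 and 27 tags. Fold enrichments were 3.97 and 2.94, and background on the pileup scale was 5.30 and 8.52. Sf3a1, which encodes the largest SF3a subunit, had peaks on chromosome 11 from 4060202 to 4060507 and from 4060131 to 4060489, with 28 and 29 tags and fold enrichments of 4.60 and 3.77. The start of Sf3a1 is shared with Ccdc157 on the opposite strand. Tags were thus slightly higher and fold enrichment lower with FGF19 at both genes.

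Sf3a2 and Sf3b3 had a vehicle peak only, each within 1 kb of an opposite gene (Plekhj1 and Cog4). The Sf3a2 peak, on chromosome 10 from 80260695 to 80260973, had 20 tags and a fold enrichment of 5.35, the largest vehicle value among splicing factor genes, over the lowest background, 2.93. The Sf3b3 peak, on chromosome 8 from 113370758 to 113371039, also had 20 tags but a fold enrichment of 3.11, and its centre was 25.5 bp from the TSS of Cog4. Sf3a3, Sf3b2, Sf3b4 and Sf3b5 had no peak under the rule. At Sf3a3 a vehicle peak (25 tags, fold enrichment 5.05) and an FGF19 peak (27 tags, 2.94) lay 5302 and 5550 bp upstream, just outside the window of 5 kb. The farthest peak just inside was that of Snrpd3, at 4124 bp.

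Of the Prpf genes, Prpf19 had a peak in both lists. It encodes a ubiquitin ligase whose complex helps to activate the spliceosome. The peaks lay on chromosome 19 from 10969689 to 10969988 (vehicle) and from 10969569 to 10969966 (FGF19), with 24 and 23 tags. Fold enrichments were 3.83 and 5.86, over backgrounds of 5.53 and 3.10, so the ratios differed more than the tags. With FGF19 only, Prpf39 had 3.97 with 19 tags, on chromosome 12 from 66137319 to 66137611, and Prpf40b had 3.54 with 19 tags, on chromosome 15 from 99125457 to 99125890. Both genes encode relatives of yeast proteins of the U1 snRNP.

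Prpf8 encodes the large protein at the heart of the spliceosome, and its only peak lay 1206 bp past the end of the gene, near the TSS of Rilp, with 22 tags and a fold enrichment of 2.42, in the lowest 1.08% of the FGF19 list. The other tri-snRNP genes Prpf3, Prpf4, Prpf6 and Prpf31 had no listed peak, nor had Prpf18, Prpf38a, Prpf38b and Prpf4b. Likewise the peak counted for Snrpd3, a gene of the Sm ring, had its summit at -4193 bp from the TSS, with 17 tags and a fold enrichment of 3.08. The genes for the other Sm proteins and for the proteins specific to the U1 and U2 snRNPs (Snrpa, Snrpc, Snrpa1 and Snrpb2) had none within 5 kb. Outside that window, an FGF19 peak (fold enrichment 2.85) lay 5433 bp from Snrpg. Vehicle peaks lay 7322 bp from Snrpd1 and 8010 bp from Snrpa. The nearest TSS was that of another gene in each case.

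At the 9 splicing factor regions where peaks of both lists overlapped, fold enrichment was higher with FGF19 in 7, all but Sf3a1 and Sf3b1. As a log2 ratio, FGF19 over vehicle, the median was 0.23 (quartiles 0.07 and 0.49), and over all 678 overlapping regions it was -0.02 with 329 higher. The largest log2 ratios were those of Srsf2, 0.64, Prpf19, 0.61, and Hnrnpf, 0.49. Summits were at most 100 bp apart in 7 of the 9 regions. They were 148 bp apart at Srsf3 and 468 bp apart at Srsf2, so the Srsf2 ratio compares separate maxima. Sf3b1 and Sf3a1 had -0.43 and -0.29. Scaled to 10000000 ChIP tags, pileup was higher with FGF19 in 8 of 9, all but Hnrnpu, with a median log2 ratio of 0.42 against 0.20 over all overlapping regions, of which 499 were higher. Tags as deposited, not scaled to depth, were higher in 7 of 9. Overlap thus took in 9 of 13 vehicle peaks (69.2%, 42.4 to 87.3), where the full list had 45.5%. For the FGF19 list it took in 9 of 28 (32.1%, 17.9 to 50.7), where the full list had 21.8%. Each interval includes the share of its full list.

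The input background moved as well as the tags. It was 12.4 with vehicle and 7.27 with FGF19 at Hnrnpu, where tags as deposited were 45 and 37, so the higher fold enrichment with FGF19 there went with a lower background. At Srsf3 the background was 3.69 and 3.83, and at Hnrnpul1 4.79 and 5.45, while tags as deposited were 24 and 29 at Srsf3 and 25 and 33 at Hnrnpul1. Background is on this same unscaled tag scale of each library. Fold enrichment and scaled pileup gave opposite directions at Hnrnpu, Sf3a1 and Sf3b1, and with tags as deposited at Prpf19 too. The part of the background in these ratios was not tested.

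**Figure D3:**
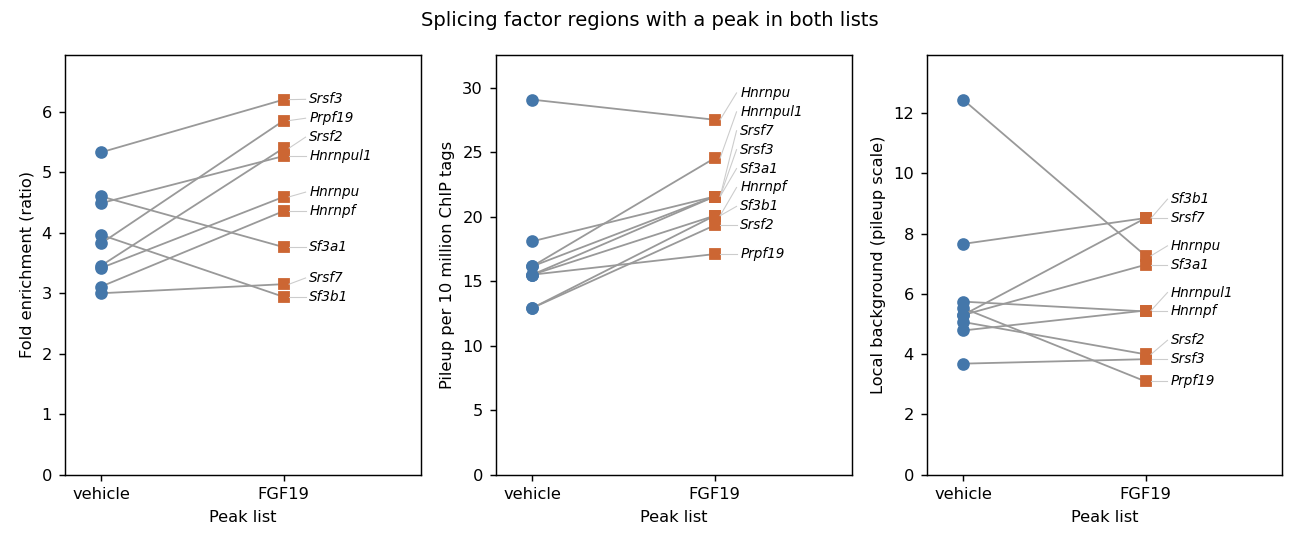
Lines join the vehicle and FGF19 values of the 9 splicing factor regions with overlapping peaks, for fold enrichment (ratio), pileup scaled to 10000000 ChIP tags, and local background on the pileup scale, each axis starting at 0. With FGF19, fold enrichment was lower only at Sf3a1 and Sf3b1 and scaled pileup only at Hnrnpu, where the background was 12.4 with vehicle and 7.27 with FGF19.

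Nearly all of these peaks lay at a TSS. The peak centre was within 1 kb of an annotated TSS of any gene for 13 of 13 vehicle peaks (interval 77.2 to 100%), against 72.7% of the whole vehicle list. With FGF19 it was so for 27 of 28 (96.4%, 82.3 to 99.4), against 81.6% of that list. Median distances were 98 bp (vehicle) and 111.5 bp (FGF19), against 159 and 120 bp over the full lists. Among peaks at the gene's own promoter, 6 of 11 summits with vehicle and 11 of 24 with FGF19 lay at or downstream of the TSS, with vehicle summits between -126 and 302 bp and FGF19 summits reaching 601 bp downstream. Over all peaks counted, summits lay in untranslated exons in 5 cases with vehicle and 9 with FGF19, in introns in 0 and 5, in coding exons in 1 and 0, and outside the gene in 7 and 14.

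**Figure D4:**
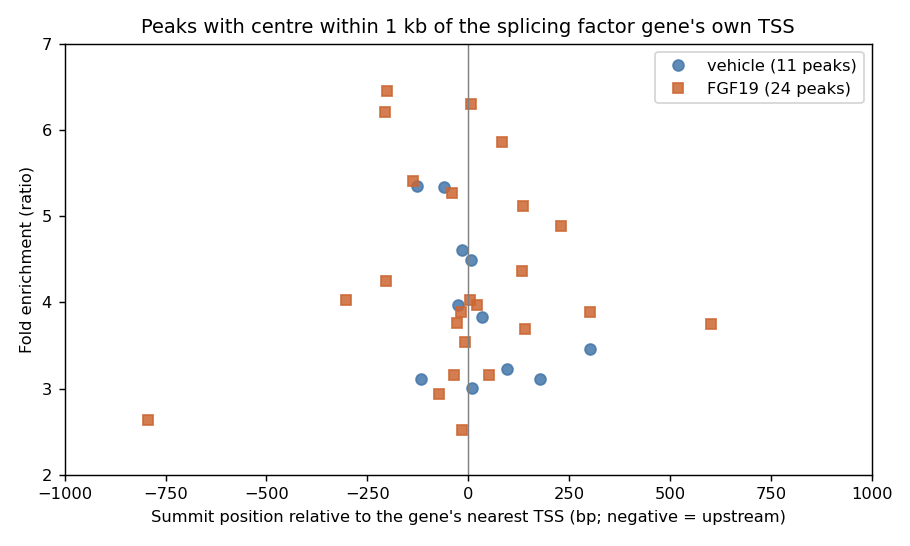
Each point is a peak with its centre within 1 kb of a TSS of the splicing factor gene, 11 with vehicle (circles) and 24 with FGF19 (squares), with the summit position relative to the nearest TSS of that gene in bp on the x axis and fold enrichment on the y axis. The summits lie on both sides of the TSS, and the farthest downstream is that of Hnrnpab, at 601 bp.

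Many of these promoters served a second gene. Of the splicing factor peaks within 1 kb of a protein-coding TSS, 6 of 13 with vehicle (46.2%, 23.2 to 70.9) and 10 of 27 with FGF19 (37.0%, 21.5 to 55.8) had TSSs of at least 2 protein-coding genes within 1 kb, against 17.0% and 14.8% over all such peaks. Among peaks at the gene's own promoter, 6 of 11 (vehicle) and 10 of 24 (FGF19) had another gene start within 1 kb, and each of these had one on the opposite strand. The arrangement was frequent among the genes themselves. Of all 62 splicing factor genes 33.9% had another protein-coding TSS within 1 kb of the gene start (23.3 to 46.3), against 13.1% of all protein-coding genes. It was so for 12 of the 30 with a peak (24.6 to 57.7%) and 9 of the 32 without (15.6 to 45.4%), against 24.2% and 10.3% of all genes with and without one. At such starts a peak cannot be given to 1 of the genes, and with peaks kept only where the nearest TSS was that of the splicing factor gene, 9 genes were left with vehicle (14.5%, against 5.46% of all genes under the same rule) and 20 with FGF19 (32.3%, against 11.8%).

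The sequence windows were rich in G, C and CpG. Median GC content within 100 bp of the summit was 65.2% with vehicle and 68.9% with FGF19, against 63.7% and 68.2% over all peaks. The CpG ratio (observed over expected from base content) had a median of 1.01 (vehicle) and 0.939 (FGF19), against 0.790 and 0.864 over all peaks. Windows of the same length centred on the gene start, 1 for each gene, had a median ratio of 0.985 in splicing factor genes with a peak, 1.01 in those without and 0.610 in all protein-coding genes. Their GC content was 63.9%, 60.2% and 58.7%.

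Exact matches on either strand were counted for 8 motifs within 100 bp of the summit, and no match overlapped one to another motif. The core AANATGGC, which YY1 binds, was in 3 vehicle peaks (23.1%, 8.18 to 50.3) and 6 FGF19 peaks (21.4%, interval up to 39.5). Over all peaks it was in 9.75% and 7.54%, and over all protein-coding promoters, read around the gene start, in 5.72%. Around the gene start it was in 4 of 30 splicing factor genes with a peak (13.3%, 5.31 to 29.7). Without a peak it was in 3 of 32 (9.38%, 3.24 to 24.2), and these intervals overlap. At Hnrnpul1 the same copy lay 42 bp from the vehicle summit and 4 bp from the FGF19 summit, and it is the GCCATCTT in the printed sequence. At Sf3a1 too the same copy was counted in both lists, 54 bp from the vehicle summit and 65 bp from the FGF19 summit. The shares of the lists are therefore not independent. Within 50 bp of the summit only 3.57% of FGF19 peaks, that of Hnrnpul1, held the core. A narrower window can only hold as many matches or fewer, and the share of all FGF19 peaks in it is not given here. The other copies in FGF19 windows lay between 65 and 94 bp from the summit. Over the whole called interval 46.2% of vehicle peaks and 35.7% of FGF19 peaks held it, against 15.5% and 14.1% of all peaks. Of the peaks with the core near the summit, that of Hnrnpl with vehicle lay at the TSS of Ech1 and that of Hnrnpul2 with FGF19 at the TSS of Bscl2.

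SP1's CCCCGCCCC was in 8 of 28 FGF19 peaks (28.6%, 15.3 to 47.1), against 14.8% of all FGF19 peaks and 11.9% of promoters, and in 1 of 13 vehicle peaks, that of Sf3a1, against 13.1% of all vehicle peaks. Srsf2 held it on each strand, 12 bp and 56 bp from the FGF19 summit, and Srsf6, Srsf11 and Sf3a1 within 11 bp of theirs. Around the gene start it was in 8 of 30 splicing factor genes with a peak (26.7%, 14.2 to 44.4) and 2 of 32 without (6.25%, 1.73 to 20.1). The NF-Y sequence ATTGGC was in 2 vehicle peaks (15.4%, all peaks 11.2%) and 5 FGF19 peaks (17.9%, all peaks 11.1%). Around the gene start it was in 5 of 30 genes with a peak (16.7%, 7.34 to 33.6) and 10 of 32 without (31.2%, 18.0 to 48.6), against 12.0% of all promoters. Their intervals overlap in both cases, and the differences were not tested.

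The nuclear receptor half-site AGGTCA was in 0 of 28 FGF19 windows within 100 bp of the summit, for which the 95% interval reaches 12.1% and includes the 7.13% of all FGF19 peaks. With vehicle it was in 2 of 13 peaks, those of Srsf3 and Sf3b3 (9.08% of all vehicle peaks and 8.91% of promoters), and the Srsf3 copy lay 7 bp from the summit, as the capitals in its printed window show. Over the whole called interval it was in 3 FGF19 peaks (10.7%, against 14.7% of all) and 3 vehicle peaks (23.1%, against 15.8%). NRF1's GCATGCGC was in the window of 1 vehicle peak (Srsf7), outside the called interval, ZBTB33's TCTCGCGA in 1 FGF19 peak (Srsf5), the ETS sequence CCGGAAGT in 1 vehicle and 2 FGF19 peaks (Sf3a1 in both lists and Prpf19 with FGF19), and the CREB site TGACGTCA in none. All promoters held these at 2.58%, 1.08%, 4.21% and 1.93%, in that order. In the same order, the shares over all vehicle peaks were 3.18%, 4.05%, 3.32% and 1.53%. Over all FGF19 peaks they were 3.49%, 2.06%, 3.39% and 1.87%. A match is a run of letters and not evidence of a bound factor.

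**Figure D5:**
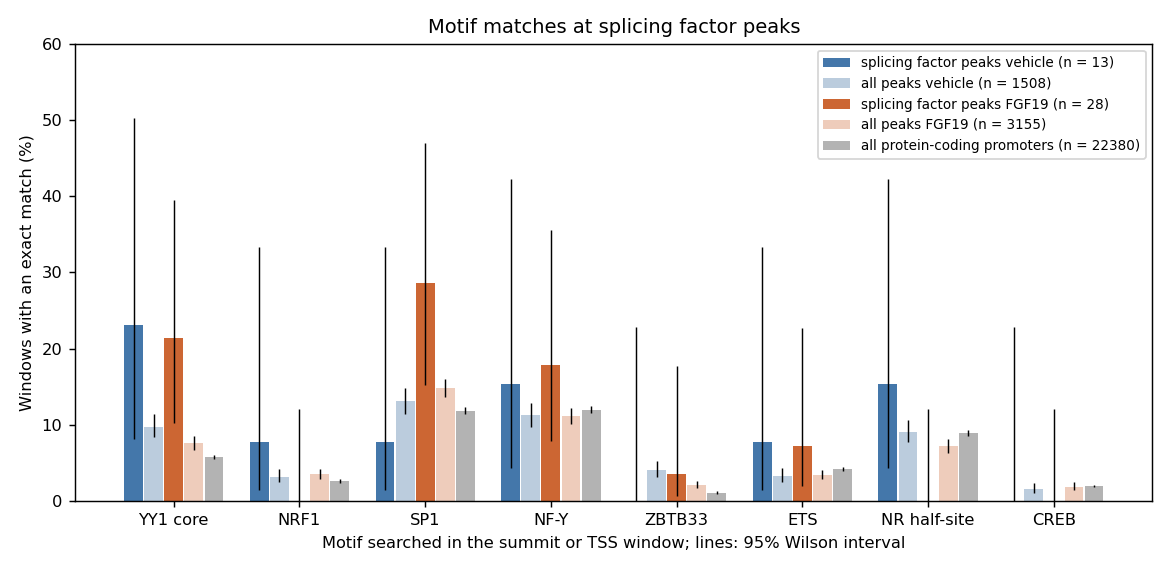
Bars give the percentage of windows reaching 100 bp to each side with an exact match to each motif on either strand, in splicing factor peaks and all peaks of each list and in all protein-coding promoters, and black lines give 95% Wilson intervals. The widest gaps between splicing factor peaks and all peaks are for the YY1 core (23.1% against 9.75% with vehicle, 21.4% against 7.54% with FGF19) and for SP1 with FGF19 (28.6% against 14.8%), and the intervals are wide. The copies of the YY1 core at Hnrnpul1 and Sf3a1 are counted in both lists.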

How the data were processed

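The authors aligned ChIP-seq reads to mm9 with Bowtie 1.0.0 and called peaks in each pooled SHP library against its own pooled input with MACS2 2.0.10.20130501 at a q-value cutoff of 0.05. The deposited pileup is a signal in extended tags, the deposited fold enrichment is a ratio, and the deposited p-values and q-values are on a -log10 scale. Per the file headers, the larger library, here the input, was scaled to the smaller. The GENCODE M1 annotation and the genome read here are of the same build.

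Peaks within 5 kb of a gene body were assigned to the gene. Peaks sharing at least 1 bp were called overlapping, and distances run from the peak centre to all 95495 annotated transcript starts unless summits are named. Background on the pileup scale is (pileup + 1) / fold enrichment - 1. No test was made. Gene families, comparison lists and motifs were chosen with earlier results of these data known, and promoter counts per gene, paired starts, window edges, motif shares of all peaks over the called intervals, the nearest-TSS share of all genes, GC content and background values were added after first values were seen. Values are given for genes with a peak in both lists or with vehicle only, and for the 3 with FGF19 only of largest fold enrichment per family, and more briefly for the rest. The values of 1 gene are not reported here, and it is kept in the counts and medians. Functions were tested on simulated data. Peaks were handled in Python 3.11.15 with pandas 2.3.3 and numpy 2.4.6, intervals came from scipy 1.17.1, sequences from pyfaidx 0.9.0.4 after indexing by samtools 1.23.1, and plots from matplotlib 3.10.9.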

Additional observations from a re-analysis of the deposited data

How the results depend on the processing

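No paired analysis was possible because each group is 1 pooled library, and no replicate could be left out. Requiring a fold enrichment of at least 4 left 5 splicing factor genes with 5 vehicle peaks and 14 genes with 14 FGF19 peaks. Shortening the FGF19 list to the length of the vehicle list left 16 genes with 16 FGF19 peaks. Adding the other spliceosome genes gave 38 genes with 39 vehicle peaks and 65 genes with 66 FGF19 peaks, by construction. Scaled to 10000000 ChIP tags, the median pileup was 15.5 (vehicle) and 19.3 (FGF19), a change of unit. Within 50 bp of the summit, the share of FGF19 peaks was 3.57% for AANATGGC and 7.14% for ATTGGC, and the 1 GCATGCGC match with vehicle was lost there and in the called intervals. The cause of the motif changes was not tested, and the shares of all peaks within 50 bp are not given here. In the remaining 71 of the recomputed values, counts stayed within 1.5 times and other values within their counting or order-statistic interval. With 13 and 28 peaks, intervals on shares of peaks are wide, and sites below the authors' cutoff were not analysed here.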
